A study of Mus musculus with 36 samples.

Results

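DNA methylation and the Polycomb mark on histone H3 are chromatin marks that keep genes silent, and 10 genes that copy, set or remove them were followed through liver development. The 10 genes were chosen by symbol from the 21889 symbols of the expression table. They are Dnmt1 and Uhrf1, which copy DNA methylation when DNA is replicated, Dnmt3a and Dnmt3b, which set new methylation, Tet1, Tet2 and Tet3, which oxidise methylated cytosine and start its removal, and Ezh2, Ezh1 and Suz12, which belong to Polycomb repressive complex 2 (PRC2). All 10 symbols were found, and 8 of them reached a mean of 1 FPKM in at least one age and were tested. Tet1 and Tet2 did not reach it.

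In replicating cells the daughter strand of DNA is made without methyl groups. Uhrf1 binds the hemimethylated CG sites that result and brings in Dnmt1, the maintenance methyltransferase, which is itself made mainly in dividing cells. PRC2 places methyl groups on lysine 27 of histone H3. Its catalytic subunit is either Ezh2, which is typical of dividing and progenitor cells, or Ezh1, which is typical of resting cells, and neither is stable or active without the scaffold subunit Suz12. The fetal liver is a blood-forming organ with dividing hepatoblasts, and both activities come to an end in the weeks after birth.

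Livers were taken from 36 male C57BL/6 mice (of the J substrain, by the study's methods), 3 at each of 12 ages. No group had a treatment or a genetic change. The p-values of the fits rest on the spread between mice of one age, estimated over all 12 ages together. Those of the ratio comparisons rest on age means alone. These follow each other in time, so any steady trend with age gives the smallest p that such a test allows. The ages were GD17.5 (late gestation, given in the labels as day -2), Day 0 (at birth, before suckling), Days 1, 3, 5, 10, 15 and 20 (pups with their dams) and Days 25, 30, 45 and 60 (after weaning at 21 days). RNA-Seq of polyadenylated RNA gave the level of each gene as FPKM (fragments scaled by the length of the transcript and by the reads of the library), a unit that allows levels of different genes to be compared. Ages were grouped as in the study, which had clustered energy metabolism genes of these same livers. The groups were perinatal (GD17.5 to Day 5, 15 mice), pre-weaning (Days 10 to 20, 9 mice) and adolescent to adult (Days 25 to 60, 12 mice).

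The RNA came from whole liver, so a fall in the share of a cell type and a fall of the mRNA within each cell cannot be told apart. The summed FPKM of 8 hepatocyte markers (Alb, Hnf4a and others) was 9079 to 65464 in the perinatal mice and 48462 to 69570 in the oldest group. Blood-forming cells were present early, with 8 erythroid markers summing to 572 to 3926 FPKM in perinatal mice and 32.8 to 88.0 FPKM at Days 25 to 60. The sum of 6 skeletal muscle markers reached 1269 FPKM in 1 Day 0 mouse against a perinatal median of 4.55. The sum of 6 pancreas markers was between 0.342 and 15716 FPKM across the oldest group. Libraries of the same age also differed by a trend with transcript length and GC content, which moved several of the 10 genes and is described with them.

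The promoters that held E2F sequences are shown first, with 1 that did not. The windows run from 250 bases before to 50 bases after the annotated start of transcription (RefSeq, GRCm38.p6), and 15 such windows were found for the 10 genes. Capitals mark matches to 4 sequences bound by E2F factors, the family that switches on genes for DNA replication, namely TTTCCCGC, TTTGGCGC, TTTCGCGC and TTTGCCGC, searched on both strands. No match overlapped another. The window of Dnmt1 (chr9:20952574-20952873, minus strand) held 2 matches, that of Uhrf1 (chr17:56304063-56304362, plus strand) 1, that of Ezh2 (chr6:47594981-47595280, minus strand) 1 and that of Suz12 (chr11:79992856-79993155, plus strand) 1. The window of Ezh1 (chr11:101226414-101226713, minus strand) is shown as 1 of those that held none.
Dnmt1: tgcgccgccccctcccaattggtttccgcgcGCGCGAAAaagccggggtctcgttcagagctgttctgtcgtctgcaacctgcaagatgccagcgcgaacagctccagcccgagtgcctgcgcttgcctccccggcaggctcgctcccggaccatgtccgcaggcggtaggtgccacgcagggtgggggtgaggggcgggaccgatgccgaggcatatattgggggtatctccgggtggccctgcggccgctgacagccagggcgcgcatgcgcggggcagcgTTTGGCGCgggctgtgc
Uhrf1: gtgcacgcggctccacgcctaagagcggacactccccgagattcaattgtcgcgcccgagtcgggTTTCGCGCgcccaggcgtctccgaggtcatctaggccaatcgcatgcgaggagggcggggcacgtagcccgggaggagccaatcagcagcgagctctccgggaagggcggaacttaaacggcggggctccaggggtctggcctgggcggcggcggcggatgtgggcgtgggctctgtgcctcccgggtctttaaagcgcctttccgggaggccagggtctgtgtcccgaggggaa
Ezh2: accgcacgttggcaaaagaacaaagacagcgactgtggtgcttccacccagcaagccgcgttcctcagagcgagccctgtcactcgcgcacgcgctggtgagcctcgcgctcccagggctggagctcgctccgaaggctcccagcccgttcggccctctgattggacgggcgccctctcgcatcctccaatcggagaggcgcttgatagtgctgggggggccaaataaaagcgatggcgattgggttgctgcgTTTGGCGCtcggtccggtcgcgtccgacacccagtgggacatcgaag
Suz12: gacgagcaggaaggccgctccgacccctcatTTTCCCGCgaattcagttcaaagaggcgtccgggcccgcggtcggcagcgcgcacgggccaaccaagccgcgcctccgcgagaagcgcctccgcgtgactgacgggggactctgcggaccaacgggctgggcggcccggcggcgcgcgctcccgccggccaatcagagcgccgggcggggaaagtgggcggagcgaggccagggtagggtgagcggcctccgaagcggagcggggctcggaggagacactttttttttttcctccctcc
Ezh1: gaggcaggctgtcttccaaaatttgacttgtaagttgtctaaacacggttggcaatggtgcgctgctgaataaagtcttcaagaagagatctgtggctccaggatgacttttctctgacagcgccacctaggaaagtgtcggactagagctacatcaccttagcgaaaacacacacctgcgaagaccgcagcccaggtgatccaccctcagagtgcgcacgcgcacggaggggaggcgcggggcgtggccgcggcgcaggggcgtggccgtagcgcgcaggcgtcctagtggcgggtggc
The matches began 219 bases before and 33 bases after the start in Dnmt1, 185 bases before it in Uhrf1, 3 bases after it in Ezh2 and 219 bases before it in Suz12. Of all 32851 promoter windows, 2.26% held such a match, and among the 8701 windows with at least 20 CG the share was 5.15%. Counted by gene, 4 of the 10 genes had a match in at least 1 window, against 2.60% of 27025 genes. No match was found in the windows of Dnmt3a, Dnmt3b, Tet1, Tet2, Tet3 or Ezh1, which says only that these letters are not in these windows. Without a match, the GD17.5 mean was 26.8 times that of Day 60 for Tet1, at values near 0, and 7.70 times for Dnmt3b. It was 5.18 times for Dnmt3a, 4.43 for Tet3, 1.58 for Tet2 and 1.56 for Ezh1. With a match it was 327 times for Uhrf1, 28.7 for Dnmt1, 25.4 for Ezh2 and 6.92 for Suz12. Whether a match goes with the size of the fall was not tested. A match is a description of the sequence, and binding was not measured here.

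At GD17.5 the mRNA of the maintenance pair stood highest, with Dnmt1 at 21.4 ± 3.27 and Uhrf1 at 20.6 ± 1.49 FPKM (mean ± SD, n = 3), followed by Ezh2 at 10.3 ± 2.58 FPKM. At Day 60 the order had turned, with Ezh1 first at 2.87 ± 0.175 FPKM and the means of the other genes below 1 FPKM. The test was a limma fit of log2(FPKM + 1), and p-values are Benjamini-Hochberg adjusted across the 11149 genes that passed the filter. On this scale the change of a gene near or below 1 FPKM is understated. Genes that are high early pass the filter of 1 FPKM through those ages, so the counts below describe the 8 tested genes and are read against the share of all genes.

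Each of the 8 tested genes passed the test over all ages against Day 60, as did 90.7% of all genes tested. For Ezh1 this call was lost with libraries scaled to a common 75th percentile (limma adjusted p = 0.219) and in TPM (adjusted p = 0.0671). At GD17.5 all 8 were higher than at Day 60 in the deposited values. Of all 11149 genes 75.1% differed in either direction, and 6289 were higher. The shares at the later ages also count both directions. At GD17.5 Ezh1 differed by 0.03 with libraries scaled to a common 75th percentile and by -0.07 with the GC and length trend removed. Higher values than at Day 60 were called in 6 of the 8 at Day 0 (63.9% of all genes differed), in 7 at Day 1 (65%) and Day 3 (66.0%), and in 6 at Day 5 (65.4%) and Day 10 (46.0%). At Day 15 the difference was left in 3 genes (Dnmt1, Uhrf1 and Dnmt3b; 27.4% of all genes), at Day 20 in 1 (Dnmt3b; 15.9%) and at Day 25 in 2 (Uhrf1 and Dnmt3b; 7.42%). None of the 8 passed the test at Day 30 (3.56%) or at Day 45 (0.233%). At an unadjusted p under 0.05 limma gave 1 gene at Day 30, Dnmt3b with 0.42 (SE 0.15), and 0 at Day 45.

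**Figure D1:**
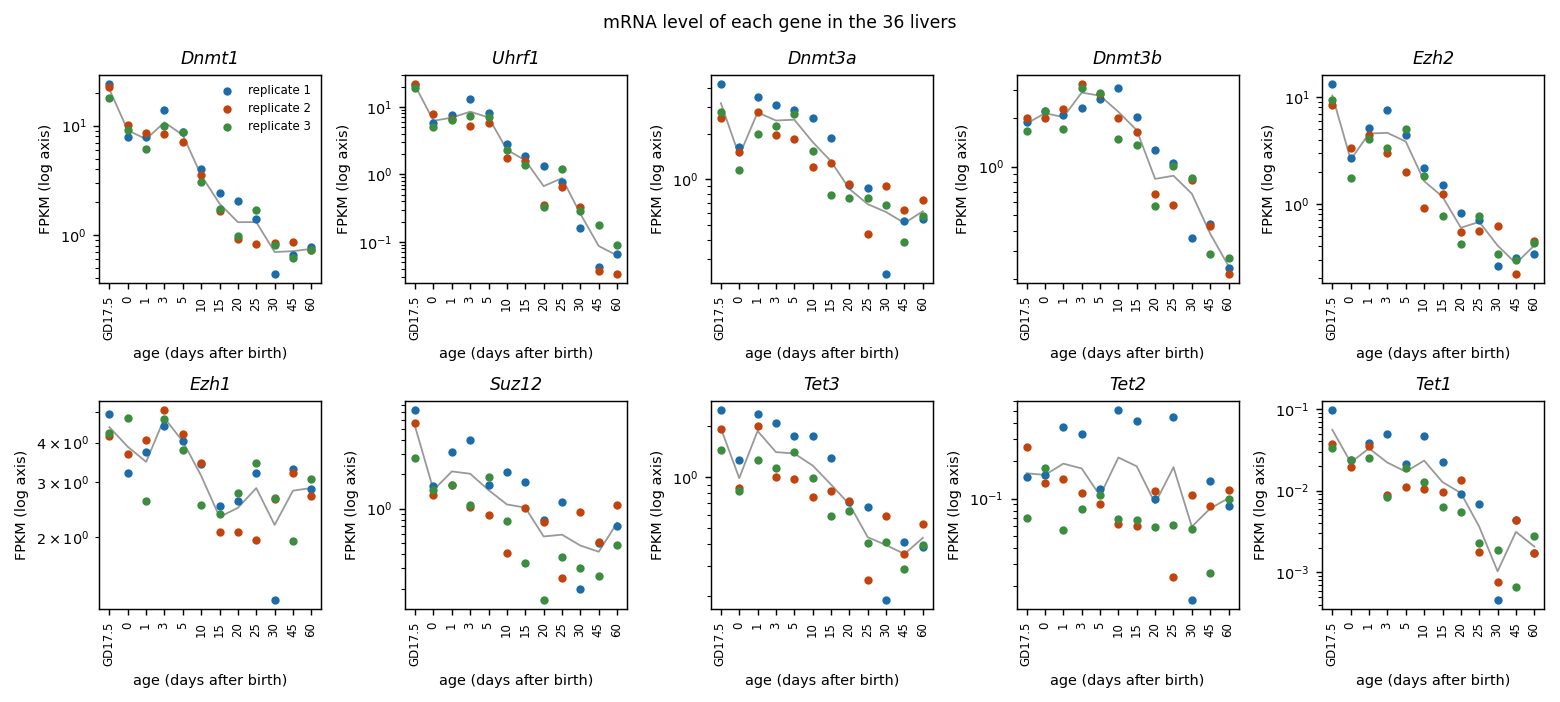
FPKM of each of the 10 genes (log axis, 1 panel per gene with its own range) against age in each of the 36 mice, with replicate numbers as colours and a line through the age means. Uhrf1 lies between 18.9 and 21.8 FPKM at GD17.5 and between 0.0339 and 0.0887 at Day 60, whereas Ezh1 stays between 1.26 and 5.07 FPKM in all mice.

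Dnmt1 (chr9:20711650-20757317, minus strand, NCBI37/mm9) fell steeply in 2 steps. The 3 mice of GD17.5 had 24, 22.6 and 17.7 FPKM, and those of Day 0 had 7.87, 10.2 and 9.08 FPKM. It then kept a plateau, with every mouse of Days 0 to 5 between 6.14 and 13.9 FPKM. The mice of Day 10 had 3.98, 3.51 and 3.04 FPKM, all below those of Day 5, and those of Day 15 were lower again, at 2.43, 1.64 and 1.72 FPKM. The mean at Day 60 was 0.746 ± 0.0252 FPKM, which is 3.48% of the GD17.5 mean. The lowest perinatal mouse (6.14 FPKM) was above the highest of Days 25 to 60 (1.69 FPKM). The perinatal ages exceeded Days 25 to 60 by 2.64 on the log2(FPKM + 1) scale (SE 0.09, limma adjusted p = 7.97e-22).

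Uhrf1 (chr17:56442744-56462909, plus strand) had the widest range of the 10 genes, with a mean at GD17.5 that was 327 times that of Day 60. Its 3 values were 20.9, 21.8 and 18.9 FPKM at GD17.5, and 5.70, 7.93 and 5.05 FPKM at Day 0. At Day 10 they were 2.86, 1.74 and 2.33 FPKM and at Day 60 0.0661, 0.0339 and 0.0887 FPKM. All 3 mice of Day 30 (0.161, 0.333 and 0.287 FPKM) were below the 3 of Day 25 (0.781, 0.642 and 1.21 FPKM), whereas those of Dnmt1 overlapped, with means of 1.31 FPKM at Day 25 and 0.698 FPKM at Day 30. The perinatal ages exceeded Days 25 to 60 by 2.92 on the log2 scale (SE 0.10, limma adjusted p = 3.85e-21). The groups did not overlap, with 5.05 FPKM as the lowest perinatal value and 1.21 FPKM as the highest late one.

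In most livers the FPKM of Uhrf1 lay somewhat below that of Dnmt1. The ratio of the pair was between 0.873 and 1.07 in the 3 mice of GD17.5 and between 0.0462 and 0.122 in those of Day 60. As a mean of log2(FPKM + 1) differences the ratio was -0.24 in the perinatal ages and -0.52 at Days 25 to 60, a difference of 0.28 (two-sided exact permutation test over 9 age means, p = 0.0794, adjusted over 3 ratios 0.119). Because Uhrf1 ended far below 1 FPKM, this value depends on the constant added. With 0.1 FPKM added instead of 1, the difference was 1.29 and the adjusted permutation p was 0.0476.

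The de novo enzymes changed less than the maintenance pair, and the timing of Dnmt3a and Dnmt3b was not alike. Dnmt3a (chr12:3806007-3914443, plus strand) was at 4.27, 2.53 and 2.77 FPKM in the mice of GD17.5 and at 1.64, 1.51 and 1.15 FPKM in those of Day 0. It was at 3.52, 2.80 and 1.99 FPKM at Day 1, all above Day 0, and its mean was 0.616 ± 0.102 FPKM at Day 60. All perinatal mice (lowest 1.15, median 2.53, highest 4.27 FPKM) were above all mice of Days 25 to 60 (lowest 0.239, median 0.598, highest 0.908 FPKM). The difference between these groups was 1.08 (SE 0.09, limma adjusted p = 9.68e-12).

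Dnmt3b (chr2:153475186-153513466, plus strand) reached its highest mean after birth, at Day 3, and had no drop at Day 0. Its means were 1.85 ± 0.176 FPKM at GD17.5, 2.15 ± 0.129 at Day 0, 2.89 ± 0.510 at Day 3 and 2.76 ± 0.124 FPKM at Day 5. All 3 mice of Day 3 (2.31, 3.27 and 3.09 FPKM) were above the 3 of GD17.5 (1.91, 1.99 and 1.66 FPKM). The gene was still at 1.68 ± 0.334 FPKM at Day 15, then fell to 0.840 ± 0.376 at Day 20 and to 0.240 ± 0.0264 FPKM at Day 60. The perinatal ages exceeded Days 25 to 60 by 1.12 (SE 0.07, limma adjusted p = 1.67e-14), and Days 10 to 20 exceeded Days 25 to 60 by 0.70 (SE 0.08, adjusted p = 3.88e-08). RefSeq lists Dnmt3a-ps1 and Dnmt3b-ps1, copies whose reads could have been divided with Dnmt3a and Dnmt3b. Noncoding genes on the opposite strand overlap Dnmt3a, Dnmt3b, Ezh2 and Suz12, and their reads cannot be told apart without strand.

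Which of the 2 de novo enzymes led changed with age without a lasting direction. Dnmt3b was above Dnmt3a in 0 of 3 mice at GD17.5, in 3 of 3 at Day 0, in 0 of 3 at Day 1, in 3 of 3 at Days 15 and 25 and in 0 of 3 at Days 45 and 60. The mean log2 ratio was -0.03 in the perinatal ages and -0.07 at Days 25 to 60, a difference of 0.04 (exact permutation test, p = 0.857). The age means ranged from -0.53 to 0.38 within the perinatal ages alone, so the comparison of groups passes over this change from age to age.

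Of the genes that oxidise methylated cytosine, Tet3 had the highest mean at every age. Tet3 (chr6:83312367-83391672, minus strand) was at 2.47, 1.91 and 1.43 FPKM in the 3 mice of GD17.5 and at 0.387, 0.527 and 0.399 FPKM in those of Day 60. Its perinatal values (lowest 0.829, median 1.41, highest 2.47 FPKM) did not overlap those of Days 25 to 60 (lowest 0.189, median 0.404, highest 0.667 FPKM). The difference was 0.81 (SE 0.09, limma adjusted p = 9.07e-10). Its age means followed those of Dnmt3a closely, with a Pearson's r of 0.990 over the 12 age means, given as a description of genes read from the same libraries.

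Tet1 (chr10:62267318-62361866, minus strand) and Tet2 (chr3:133126643-133207354, minus strand) were low in every liver. Tet1 was at 0.0555 ± 0.0352 FPKM at GD17.5 and at 0.00207 ± 0.000604 FPKM at Day 60, and its highest late value (0.00681 FPKM) was below its lowest perinatal one (0.00841 FPKM). Tet2 had age means between 0.0597 and 0.213 FPKM and perinatal and late values that overlapped. Its highest values, 0.372, 0.507, 0.416 and 0.449 FPKM at Days 1, 10, 15 and 25, each came from replicate 1 of that age, and the other mice of these ages were at or below 0.143 FPKM. With no filter and 0.1 FPKM added, Tet1 was higher in the perinatal ages by 0.33 (limma adjusted p = 4.21e-06) and the difference of Tet2 was 0.38 (adjusted p = 0.164).

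The catalytic subunits of PRC2 exchanged rank during development. Ezh2 (chr6:47480273-47545340, minus strand) was at 13.3, 8.37 and 9.41 FPKM in the mice of GD17.5, at 2.68, 3.35 and 1.74 FPKM in those of Day 0 and at 5.18, 4.41 and 4.08 FPKM in those of Day 1. By Day 10 its values were 2.18, 0.906 and 1.80 FPKM, and at Day 60 they were 0.340, 0.450 and 0.430 FPKM. The GD17.5 mean was 25.4 times that of Day 60. The perinatal ages exceeded Days 25 to 60 by 1.96 (SE 0.12, limma adjusted p = 1.99e-15), and the 2 groups of mice did not overlap.

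Ezh1 (chr11:101052429-101087777, minus strand) changed least of the 8 tested genes. It was at 4.95, 4.21 and 4.28 FPKM at GD17.5 and at 2.84, 2.70 and 3.05 FPKM at Day 60, a ratio of means of 1.56. Perinatal mice (lowest 2.60, median 4.21, highest 5.07 FPKM) overlapped those of Days 25 to 60 (lowest 1.26, median 2.77, highest 3.44 FPKM). The perinatal ages exceeded Days 25 to 60 by 0.49 (SE 0.08, limma adjusted p = 4.79e-06) in the deposited values and by 0.01 with libraries scaled to a common 75th percentile. Once the GC and length trend of each library was removed the difference was -0.15, lower in the perinatal ages. Days 10 to 20 and Days 25 to 60 differed by -0.00 (SE 0.10, adjusted p = 0.984).

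The ratio of Ezh2 to Ezh1 is read within a library. It stays exposed to the GC trend of a library, with which the deviations of Ezh2 had an r of -0.81 and those of Ezh1 of -0.07, and its part in the ratio was not tested. Its FPKM values were 2.68, 1.99 and 2.20 in the mice of GD17.5 and 0.842, 0.913 and 0.364 in those of Day 0. Ezh2 was above Ezh1 in 3 of 3 mice at GD17.5 and at Day 1, in 1 of 3 at Day 3, in 2 of 3 at Day 5, and in 0 of 3 at Day 0 and at every age from Day 10 on. At Day 60 the ratio was 0.120, 0.167 and 0.141. The mean log2 ratio was 0.13 in the perinatal ages and -1.34 at Days 25 to 60, a difference of 1.47 (two-sided exact permutation test over 9 age means, p = 0.0159, the smallest that the 126 splits allow, adjusted over 3 ratios 0.0476). The lowest perinatal age mean (-0.45 at Day 0) was above the highest late one (-1.15 at Day 30). With ages in order, a steady trend is enough to give this smallest p.

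**Figure D2:**
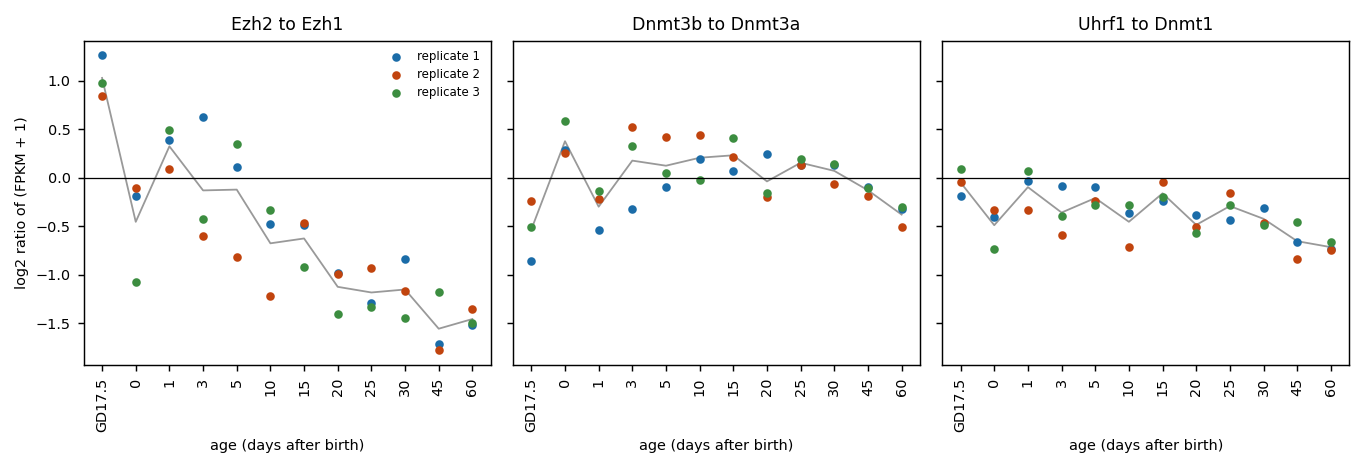
Log2 ratio of (FPKM + 1) for 3 pairs of genes against age, with a point for each mouse, replicate numbers as colours and a line through the age means; the line at 0 marks equal values. The Ezh2 to Ezh1 ratio moves from a mean of 1.03 at GD17.5 to -1.46 at Day 60, while the Dnmt3b to Dnmt3a ratio moves above and below 0 from age to age.

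Suz12 (chr11:79806608-79847625, plus strand) was the scaffold gene and varied widely between mice of one age. The 3 mice of GD17.5 had 7.22, 5.60 and 2.78 FPKM, those of Day 3 had 3.94, 1.03 and 1.08 FPKM and those of Day 10 had 2.08, 0.411 and 0.776 FPKM. At Day 60 the values were 0.712, 1.07 and 0.476 FPKM. Perinatal values (lowest 0.871, median 1.62, highest 7.22 FPKM) overlapped those of Days 25 to 60 (lowest 0.199, median 0.487, highest 1.15 FPKM). The difference was 1.02 with the largest standard error of the 8 genes (0.16, limma adjusted p = 7.67e-07). Suz12 did not pass the test against Day 60 at Days 0, 3, 5 or 10, and it did at GD17.5 and Day 1. Dunnett's comparison for the gene alone called 1 age.

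Between the age groups, the 8 tested genes were all higher in the perinatal ages than at Days 25 to 60 in the deposited values, where 70.2% of all genes were called higher and their median was itself 0.54 on the log2 scale. The median of the 8 was 1.10. With libraries scaled to a common 75th percentile the median of all genes fell to 0.14 and 7 of the 8 were called, and with the GC and length trend of each library removed it was 0.01, 6 of the 8 were called higher and Ezh1 lower. The split of all calls moved likewise, from 7824 higher and 1728 lower as deposited to 5221 and 3566, and to 4506 and 4349. Removing the trend also sets all libraries to one mean level over genes, so a small median and a near-even split follow from that step. A difference between ages that goes with GC or length is taken out with it, and cannot be told apart from a trend of the libraries. Dnmt1, Uhrf1, Ezh2, Dnmt3a, Dnmt3b and Suz12 were higher in the perinatal ages under all 3 scalings, by at least 2.25 for Uhrf1, 1.92 for Dnmt1, 1.58 for Ezh2, 0.67 for Suz12, 0.43 for Dnmt3b and 0.40 for Dnmt3a. For Tet3 the difference was 0.12 with the trend removed (adjusted p = 0.0556).

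**Figure D3:**
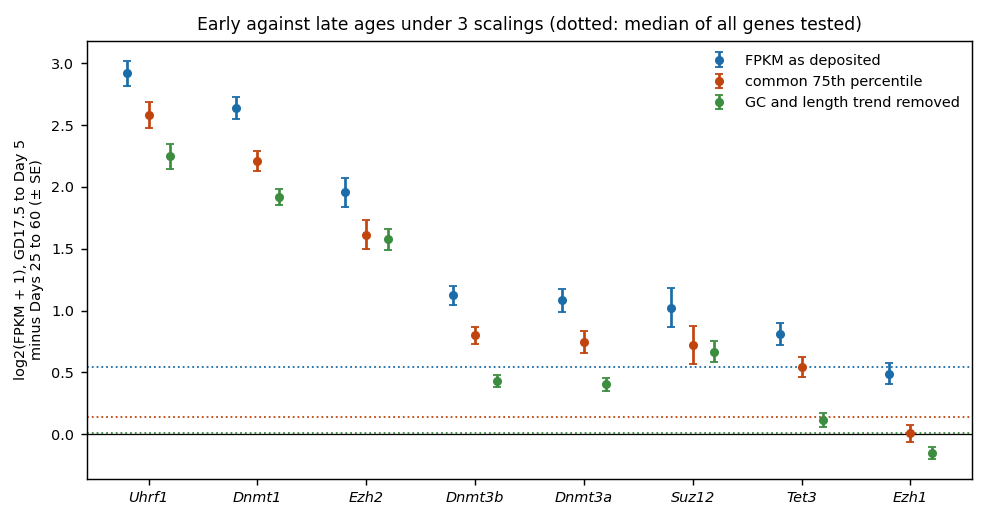
Difference in log2(FPKM + 1) between GD17.5 to Day 5 and Days 25 to 60 (± SE from limma, 15 against 12 mice) for the 8 tested genes under 3 scalings of the libraries, with the median of all genes tested as a dotted line. Uhrf1, Dnmt1 and Ezh2 lie between 1.58 and 2.92 under each scaling, whereas Ezh1 moves from 0.49 to -0.15 and Tet3 from 0.81 to 0.12.

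Against Days 10 to 20 the perinatal ages were also higher in all 8 tested genes as deposited (61.2% of all genes were called higher), and in 5 of the 8 with libraries scaled to a common 75th percentile, where Dnmt3b (0.11), Ezh1 (0.12) and Tet3 (0.12) lost the call. The differences were 2.02 for Uhrf1 (SE 0.11), 1.89 for Dnmt1 (SE 0.09), 1.43 for Ezh2 (SE 0.13) and 0.78 for Suz12 (SE 0.17), and those of the other 4 lay between 0.38 and 0.58. From Days 10 to 20 to Days 25 to 60 a further fall passed the test in 6 of the 8 (44.9% of all genes were called higher in the earlier group). The exceptions were Ezh1 and Suz12. With the GC and length trend removed the difference of Ezh1 was -0.27, lower at Days 10 to 20 than at Days 25 to 60. Suz12 had a difference of 0.24 as deposited (SE 0.18, limma adjusted p = 0.254). Dnmt3b differed by 0.42 from the perinatal ages to Days 10 to 20 and by 0.70 from there to Days 25 to 60, and Tet3 by 0.38 and 0.43.

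Of the 8 tested genes, 6 had all 15 perinatal mice above all 12 mice of Days 25 to 60, which was so for 33% of all genes tested. Ezh1 and Suz12 were the tested genes whose groups overlapped. Between consecutive ages, the mice of Day 0 were all below those of GD17.5 in 6 of the 8 genes (44.9% of all genes), Dnmt3b and Ezh1 excepted. From Day 0 to Day 1 the mice did not overlap and were higher in 3 of the 8, Dnmt3a, Ezh2 and Suz12 (32.5% of all genes), and from Day 5 to Day 10 they were all lower in 3, Dnmt1, Uhrf1 and Ezh1 (43.5% of all genes). The median of all genes against Day 60 dipped as well, from 0.56 at GD17.5 to 0.25 at Day 0 and 0.47 at Day 1, and with a common 75th percentile these medians were 0.15, 0.04 and 0.15.

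Weaning at 21 days lay between Day 20 and Day 25, and none of the 8 tested genes passed the test of Day 25 against Day 20, at an adjusted or an unadjusted p under 0.05 (limma, 7.19% of all genes differed). The differences lay between -0.24 for Tet3 and 0.21 for Uhrf1, with standard errors between 0.15 and 0.33, which limit the change that could be detected. At Day 20 Dnmt1 was at 1.31 ± 0.627, Uhrf1 at 0.669 ± 0.570 and Ezh2 at 0.596 ± 0.206 FPKM.

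Genes used in cell division were also higher early, and not all of the tested genes followed their course from Day 0 to Day 1. The summed FPKM of 20 S phase genes had a lowest, median and highest mouse of 235, 390 and 945 in the perinatal ages and of 18.2, 30.4 and 95.1 at Days 25 to 60. All 20 were called higher in the perinatal ages than at Days 25 to 60 (70.2% of all genes), with a median difference of 2.63, as were all 12 mitosis genes, with a median of 2.94. Between these groups of ages Mcm2 and Mcm5, subunits of the replicative helicase, differed by 3.87 (SE 0.11) and 3.85 (SE 0.15), Ccna2, the cyclin of S phase and early mitosis, by 4.49 (SE 0.12) and the mitotic cyclin Ccnb2 by 4.13 (SE 0.08). From Day 0 to Day 1 the S phase sum went from 43.6% to 29.8% of its GD17.5 mean and the mitosis sum from 38.2% to 27.9%. Over the same step Ezh2 went from 25.0% to 44.0%, Dnmt3a from 44.9% to 86.8%, Tet3 from 50.8% to 96.3% and Suz12 from 27.9% to 40.6%. Uhrf1 went from 30.3% to 33.7%. The means of Dnmt1 went down as the sums did, from 42.2% to 35.1%, as did those of Dnmt3b, from 116% to 110%, and Ezh1, from 86.7% to 77.5%. In Dnmt1, Dnmt3b, Ezh1, Tet3 and Uhrf1 the mice of Day 0 and Day 1 overlapped, so these steps lie within the spread between mice. The median of all genes against Day 60 was itself higher at Day 1 than at Day 0, as given above. Dnmt1 lay near the S phase sum at Day 10 (16.4% beside 16.7% of the GD17.5 mean) and Day 20 (6.11% beside 6.31%). It lay further below that sum at Day 5 (38.2% beside 46.4%) and Day 15 (9.01% beside 13.1%). Over the 12 age means Uhrf1 had a Pearson's r of 0.997 with Top2a, which is among the mitosis genes. At Day 60 the sum of the S phase genes was at 2.48% of its GD17.5 mean, beside 3.48% for Dnmt1, 3.93% for Ezh2 and 0.306% for Uhrf1. Dnmt3a was at 19.3%, Tet3 at 22.6%, Suz12 at 14.4%, Dnmt3b at 13% and Ezh1 at 64.0%.

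**Figure D4:**
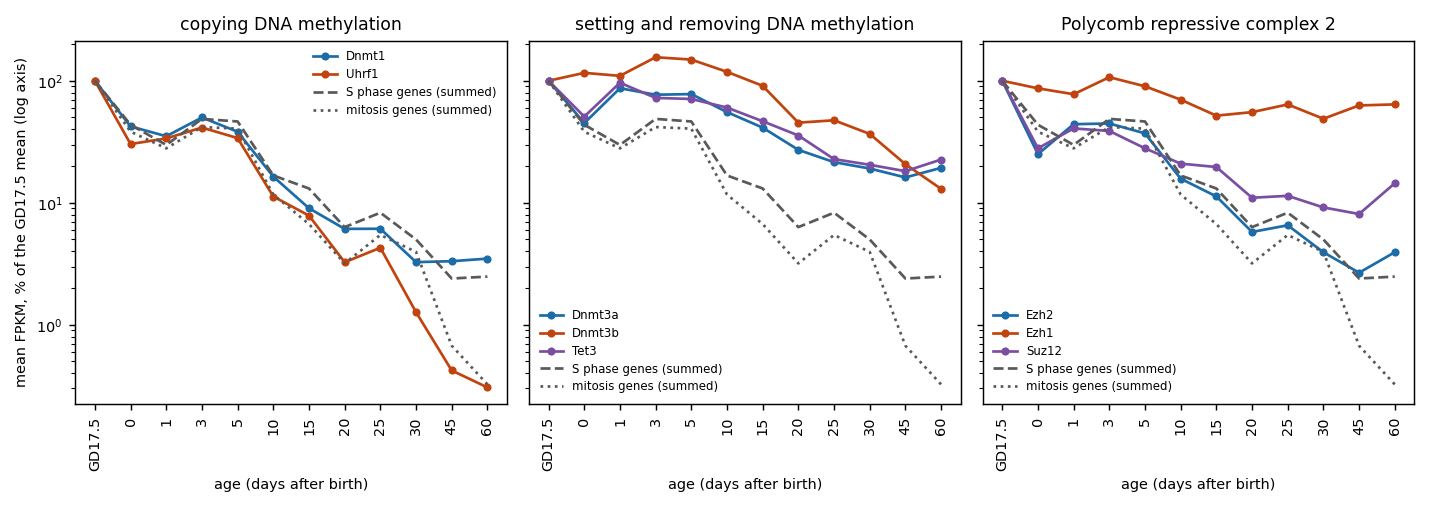
Mean FPKM at each age as a percentage of the GD17.5 mean (log axis) for Dnmt1 and Uhrf1, for Dnmt3a, Dnmt3b and Tet3, and for Ezh2, Ezh1 and Suz12, with the summed FPKM of 20 S phase and 12 mitosis genes as broken lines; n = 3 mice per age. At Day 60 Dnmt1 (3.48%) and Ezh2 (3.93%) lie near the S phase sum (2.48%), Uhrf1 (0.306%) near the mitosis sum (0.324%) and Ezh1 (64.0%) far above both.

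Markers of blood cells were also higher in the perinatal ages, with another course in places. The 8 erythroid markers found in the table, Gata1, Klf1 and others, had a median summed level of 1150 FPKM in perinatal mice, 68.7 FPKM at Days 10 to 20 and 70.0 FPKM at Days 25 to 60. In the last group Gata1 was at most 0.0693 FPKM and listed at 0 in 1 mouse, and Hemgn was listed at 0 in 2 mice. The 9 white blood cell markers had medians of 398, 44.3 and 23.3 FPKM in the 3 groups, with Mpo, a granulocyte enzyme, between 111 and 326 FPKM in perinatal mice and at most 0.237 FPKM at Days 25 to 60. From GD17.5 to Day 0, when 6 of the 8 tested genes were lower, the mean white blood cell sum went from 473 to 610 FPKM and the erythroid sum from 3419 to 1555 FPKM. The hepatocyte sum was higher after birth, with 9900 ± 926 FPKM at GD17.5 and 58572 ± 6883 at Day 0. The part of the cell types in the fall of the 10 genes was not tested.

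The partners of these enzymes were read from lists of known genes, in the deposited values only, and their calls were not refitted under the other scalings. Of 23 DNA methylation partners 17 were tested, and 14 were higher in the perinatal ages than at Days 25 to 60 (70.2% of all genes were), with none lower and a median of 0.64 beside 0.54 for all genes. The 2 that differed most were Gadd45a, a stress-induced gene linked to demethylation, with a difference between these groups of 2.11 (SE 0.12, limma adjusted p = 1.67e-15), and Trim28, a corepressor that protects methylation at silenced repeats, with 2.02 (SE 0.08, adjusted p = 8.41e-20). Gadd45a had 13.1 ± 2.56 FPKM at GD17.5 and 0.532 ± 0.155 at Day 60. Dnmt3l, a catalytically inactive partner of the de novo enzymes, did not pass the filter and was listed at 0 in 9 of 15 perinatal and in all 12 late livers.

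Among the 8 further subunits of PRC2, 7 were higher in the perinatal ages than at Days 25 to 60, beside 70.2% of all genes, with a median of 0.81. Rbbp7 and Rbbp4, histone-binding proteins shared with other complexes, led with 2.40 (SE 0.09, limma adjusted p = 5.83e-20) and 1.25 (SE 0.09, adjusted p = 4.00e-13). Phf1 was the one not called, at -0.10 (adjusted p = 0.137). Of 21 subunits of PRC1, the complex that ubiquitinates histone H2A, 20 were tested and 17 were higher (again beside 70.2%), with a median of 0.62. Cbx6, which reads the PRC2 mark, differed between these groups by 1.47 (SE 0.06, limma adjusted p = 1.59e-19) and Kdm2b, which brings a form of PRC1 to CG-rich DNA, by 1.42 (SE 0.08, adjusted p = 8.73e-16). Bmi1, Cbx7 and Cbx8 were not called, with Cbx7 at -0.11 (adjusted p = 0.0597).

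All 5 genes of the list of enzymes and cofactors that remove the PRC2 or PRC1 mark were higher in the perinatal ages than at Days 25 to 60, as were 70.2% of all genes, with a median of 0.66. Asxl1, a cofactor of the H2A deubiquitinase Bap1, differed by 1.38 (SE 0.11, limma adjusted p = 6.92e-13) and Bap1 by 1.07 (SE 0.08, adjusted p = 1.08e-12). The medians of these 3 Polycomb lists lay between 0.62 and 0.81, beside 0.54 for all genes and 1.96 for Ezh2. No gene of the 4 partner lists was called lower in the perinatal ages than at Days 25 to 60 as deposited.

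The spread between mice of an age moved with a property of the libraries. The deviation of a library from the mean of its age was correlated with transcript length across genes, with Spearman's rho from -0.629 to 0.661 over the 36 libraries. The deviations of the 10 genes moved with it, with a Pearson's r over the 36 libraries of 0.85 for Dnmt3a, 0.79 for Tet3 and 0.75 for Suz12, and of 0.44 for Uhrf1. These are descriptions, since the 3 mice of an age share its mean. With the trend of a library with GC, r was -0.83 for Suz12 (GC of 41.6%), -0.81 for Ezh2 (44.9%), -0.80 for Dnmt3a (51.9%), -0.75 for Tet3 (53.4%) and -0.61 for Tet1 (43.7%), so the r did not follow the GC of the genes in order. Tet1, with the longest transcript (14369 bases), had an r of 0.67 with the length trend. The 6 libraries with a rho above 0.5 were replicate 1 of GD17.5 and of Days 1, 10, 25 and 45, and replicate 2 of Day 30. Without these 6 libraries (the 7 with a rho below -0.5 were kept), all 8 genes were still higher in the perinatal ages than at Days 25 to 60. Suz12 then differed by 1.06. The call of Ezh1 at GD17.5 against Day 60 was lost without them (limma adjusted p = 0.0127 with and 0.0579 without).

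**Figure D5:**
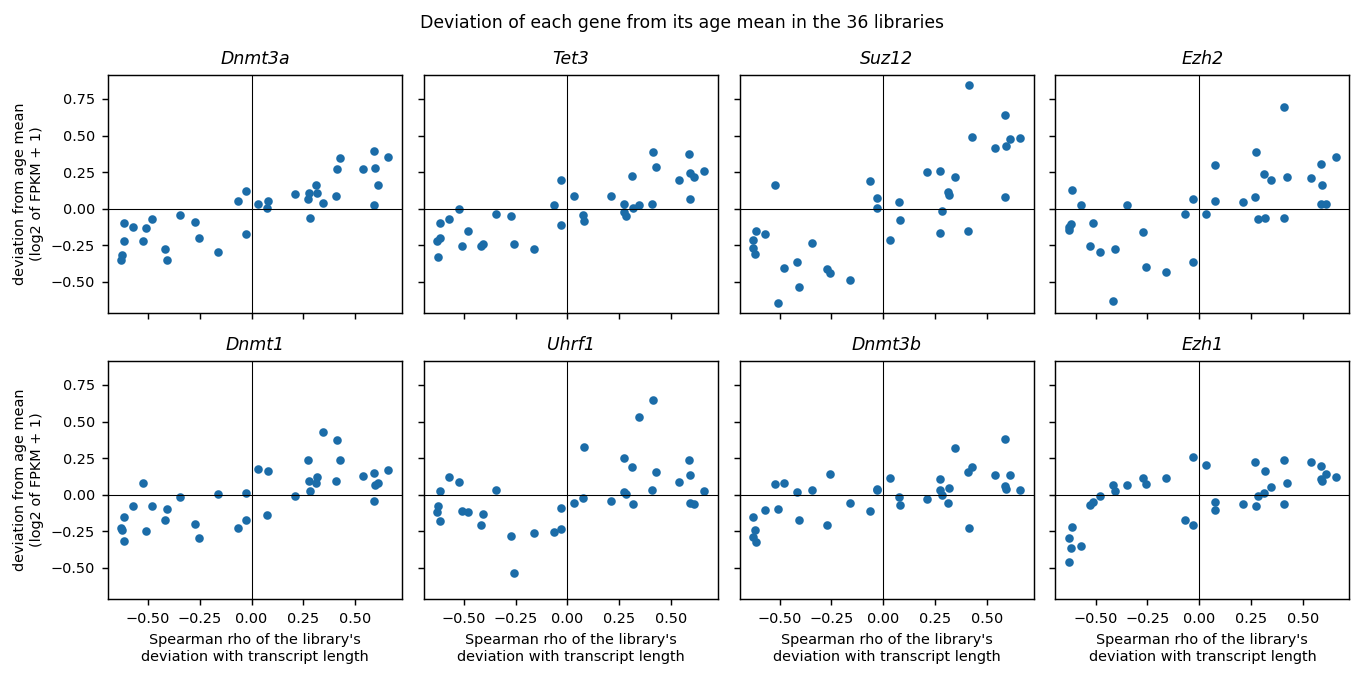
Deviation of the 8 tested genes from the mean of their age (log2 of FPKM + 1) in the 36 libraries against Spearman's rho of each library's deviation with transcript length. Dnmt3a, Tet3 and Suz12 rise with the trend (r of 0.85, 0.79 and 0.75), and Uhrf1 does so least (0.44).

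The genes most alike to each member were found by Pearson's r over the 12 age means among 6849 genes that reached 5 FPKM. Uhrf1 was most like Lmnb1, Top2a and Ncaph (r of 0.997, 0.997 and 0.996). Top2a, the topoisomerase that untangles sister chromosomes, had 23.6 FPKM at GD17.5 and 0.0695 at Day 60. Dnmt1 was most like Nup188, Cdca4 and Tcof1 (r of 0.997 each), and Ezh2 was most like Tmpo, Arhgap11a and Rnf34 (r of 0.995 each). Suz12 was most like Stag2, Luc7l2 and Srsf10 (r of 0.993, 0.993 and 0.992). Dnmt3a and Tet3 shared 2 of their 3, Fam122a and Nsmce2, with Wbp5 as the other for Dnmt3a and Add3 for Tet3 (r between 0.985 and 0.994). Dnmt3b was most like Cd63, Wtip and Gdf10 (r between 0.972 and 0.974), and Cd63 was higher at Day 10 (21.9 FPKM) than at GD17.5 (9.27 FPKM). Ezh1 had the loosest neighbours, Atp6ap1, 9030624J02Rik and Tbc1d13 (r of 0.963, 0.963 and 0.962).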

How the data were processed

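RNA from the livers of 36 mice was sequenced, and the authors deposited one table of FPKM values per gene and mouse. The submitters' processing notes name TopHat 1.2.0 and Cufflinks 1.0.3, with the NCBI37/mm9 genome and Ensembl 65 annotation. FPKM holds no counts, so the depth of each value is unknown. Low values gave a relative depth of the libraries between 0.889 and 1.115, with 64.1% of 55390 low values within 0.1 of a whole fragment, so no counts were recovered.

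Groups were taken from the labels. Log2(FPKM + 1) was fitted in limma 3.58.1 (R 4.3.3) over all 12 ages for the 11149 genes whose mean reached 1 FPKM at any age, with Benjamini-Hochberg adjustment over all of them and a threshold of 0.05. The call in at least one age was adjusted over all genes and the 11 comparisons with Day 60 together. Ratios were compared over age means by exact permutation tests, two-sided. The other steps used Python 3.11.15 (scipy 1.17.1, pandas 2.3.3, numpy 2.4.6, and matplotlib 3.10.9 for plots). The fit was tested on simulated data. Named are all 10 genes, the 2 genes with the largest rise and fall past the threshold in each list, and the 3 genes most alike to each tested gene. Marker genes, Dnmt3l and genes that were not called were named after their values were seen. The genes and lists were chosen with earlier results of these data known.

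Alternatives were another pseudocount, filter and scaling, TPM, a replicate block, no variance trend, Dunnett's comparison and each mouse left out. Removal of the GC and length trend (10887 genes with both values), leaving out 6 libraries together, and no filter with 0.1 FPKM added were chosen after seeing the data.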

Additional observations from a re-analysis of the deposited data

How the results depend on the processing

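With a filter at 5 FPKM 4 of the 10 genes were tested. Of them 4 passed against Day 60 at some age and 24 of their comparisons with Day 60 passed, 4 were higher at GD17.5 to Day 5 than at Days 25 to 60 and 4 than at Days 10 to 20, and 3 were higher at Days 10 to 20 than at Days 25 to 60. These counts cover 4 genes in place of 8, so they cannot be set directly against those of the main fit. With a common 75th percentile 5 of 8 genes were higher at GD17.5 to Day 5 than at Days 10 to 20, and the difference of Ezh1 from Days 25 to 60 was 0.01 (limma adjusted p = 0.932). With the GC and length trend of each library removed, 1 gene was lower at GD17.5 to Day 5 and 1 at Days 10 to 20 than at Days 25 to 60, Ezh1 turned to -0.15 (limma adjusted p = 0.00501) and Tet3 was 0.12 (adjusted p = 0.0556). The Uhrf1 to Dnmt1 ratio differed by 1.29 with 0.1 FPKM added (exact permutation test, adjusted p = 0.0476). The causes were not tested. Leaving out each mouse in turn ended no call of a gene between GD17.5 to Day 5 and Days 25 to 60 and changed no call of a ratio. The counts were compared only for their rough size, so single calls in other comparisons may have changed.

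With the replicate number as a block, 50 of 88 comparisons of a gene with Day 60 passed, against 46 without it, and the counts between age groups stayed at 8, 8 and 6. Mice with the same number had deviations with a median r of 0.126 (lowest -0.680, highest 0.829, 104 of 198 pairs over 0.1), and those with different numbers of -0.048 (147 of 396 over 0.1). Same-numbered mice were thus more alike at the median, though not every such pair was over 0.1. No label ties a number to a shared litter or day, so the mice were not treated as paired. Dunnett's comparison with Day 60, gene by gene, called 9 ages for Dnmt3b, 8 for Uhrf1, 7 for Dnmt1, 6 for Ezh2, 5 each for Dnmt3a and Tet3 and 1 each for Ezh1 and Suz12. Ezh1 lost the call of a difference from Day 60 in at least one age with a common 75th percentile and in TPM. FPKM without counts limits what can be said of genes near 0, such as Tet1 and Tet2.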
